A study of Rattus norvegicus with 12 samples.

Results

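Endoplasmic reticulum (ER) folding and stress genes are described here in the livers of rats that were donors after circulatory death (DCD). The group holds 10 genes, chosen by symbol: Hspa5, Hsp90b1, Calr, Sdf2l1, Pdia4, Pdia6, Hyou1, Manf, Xbp1 and Ddit3. Each symbol stood on 1 of the 33744 genes of the deposited table. All 10 passed the filter on low counts, which left 13687 genes for testing.

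RNA was sequenced from the livers of male Sprague Dawley rats of 6 to 8 weeks, with 3 livers in each of 4 groups and 1 library per liver. Every liver, the reference group included, first had 30 min of warm ischemia in situ after cardiac arrest under heparin. The WI 30 min livers had nothing more. The SCS 4 h livers were then kept for 4 h in static cold storage, in histidine-tryptophan-ketoglutarate solution. In the HMP 1 h group, 3 h of such storage were followed by 1 h of hypothermic machine perfusion through the portal vein, and in the HOPE 1 h group the perfusate of that hour was oxygenated. No group was free of warm ischemia, so a level before ischemia was not measured, and the perfused livers also had 1 h less of static storage than the SCS 4 h livers. HMP 1 h and HOPE 1 h livers together are called perfused below, and WI 30 min and SCS 4 h livers unperfused, with 6 livers on each side.

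Secretory and membrane proteins fold in the ER, and a hepatocyte, which exports most of the proteins of plasma, carries a large load of them. When unfolded proteins accumulate, sensors in the ER membrane (IRE1, PERK and ATF6) start the unfolded protein response. ATF6 and the spliced form of XBP1 raise chaperone genes, while the PERK branch slows translation and, through ATF4, raises Ddit3, which encodes CHOP, a transcription factor tied to cell death under lasting stress. Counts of whole genes do not separate spliced from unspliced Xbp1 mRNA, so these data hold the total Xbp1 message only.

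The promoters of many chaperone genes carry the ER stress response element (ERSE), in which a CCAAT box, bound by NF-Y, stands 9 bases from the sequence CCACG, bound by ATF6. In the shorter ERSE-II the motif ATTGG stands 1 base from CCACG. The 300 bases around each gene start (250 before it and 50 after it) were taken from RefSeq (build GRCr8) and searched on both strands for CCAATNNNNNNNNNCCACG and for ATTGGNCCACG. Windows were found for 8 of the 10 genes, and the genes without one were Pdia6 and Manf. Some genes have more than 1 start (33469 windows for 27457 genes), and a gene was counted if any of its windows held the motif. Of these 8, 4 held an ERSE (Hspa5, Hsp90b1, Calr and Xbp1), against 21 of 27457 genes with a window (0.0765%). Hyou1 held 2 ERSE-II, a motif found in 17 genes (0.0619%).

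The 250 bases before the start are shown for these genes, because they share the element, and for Sdf2l1, because it was called below without having one. The bases fixed by ERSE or ERSE-II are in capitals, and a site on the opposite strand reads CGTGG before ATTGG, or CGTGG before CCAAT.
Hspa5, chr3:38452766-38453015, plus strand: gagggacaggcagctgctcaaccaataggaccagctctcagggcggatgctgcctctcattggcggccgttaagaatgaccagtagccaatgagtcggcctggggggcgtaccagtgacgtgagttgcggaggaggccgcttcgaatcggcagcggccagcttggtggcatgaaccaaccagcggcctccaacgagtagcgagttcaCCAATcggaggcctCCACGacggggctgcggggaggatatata
Hsp90b1, chr7:23012294-23012543, minus strand: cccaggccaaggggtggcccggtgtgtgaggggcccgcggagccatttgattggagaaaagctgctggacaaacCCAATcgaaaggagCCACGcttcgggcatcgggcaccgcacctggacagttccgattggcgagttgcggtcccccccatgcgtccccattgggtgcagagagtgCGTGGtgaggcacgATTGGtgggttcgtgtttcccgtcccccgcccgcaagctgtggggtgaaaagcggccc
Calr, chr19:40213117-40213366, plus strand: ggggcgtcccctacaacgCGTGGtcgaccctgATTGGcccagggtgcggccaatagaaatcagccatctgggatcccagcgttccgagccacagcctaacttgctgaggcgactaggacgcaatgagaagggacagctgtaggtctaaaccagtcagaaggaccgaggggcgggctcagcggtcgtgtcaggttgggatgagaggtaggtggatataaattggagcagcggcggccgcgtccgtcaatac
Xbp1, chr14:84604373-84604622, plus strand: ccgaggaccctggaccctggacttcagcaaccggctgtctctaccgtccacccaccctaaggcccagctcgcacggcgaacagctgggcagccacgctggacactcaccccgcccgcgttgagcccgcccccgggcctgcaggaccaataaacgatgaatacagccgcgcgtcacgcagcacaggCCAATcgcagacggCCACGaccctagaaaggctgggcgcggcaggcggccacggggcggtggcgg
Hyou1, chr8:53602632-53602881, plus strand: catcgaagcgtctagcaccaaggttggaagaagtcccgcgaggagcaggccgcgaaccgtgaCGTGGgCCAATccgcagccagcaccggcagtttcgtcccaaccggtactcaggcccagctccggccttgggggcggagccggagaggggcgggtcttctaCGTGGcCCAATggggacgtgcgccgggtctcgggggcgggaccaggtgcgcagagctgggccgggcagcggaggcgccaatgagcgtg
Sdf2l1, chr11:97376628-97376877, plus strand: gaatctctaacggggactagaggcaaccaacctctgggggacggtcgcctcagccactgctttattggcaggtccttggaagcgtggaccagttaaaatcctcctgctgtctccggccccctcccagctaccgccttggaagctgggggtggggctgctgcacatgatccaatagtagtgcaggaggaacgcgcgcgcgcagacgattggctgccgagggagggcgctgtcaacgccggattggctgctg

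In Hspa5 the element lay 43 to 25 bases before the start. Hsp90b1 held 2 of them, at 176 to 158 bases on its own strand and at 72 to 54 bases on the other. The element of Calr, at 232 to 214 bases, was the farthest from the start, and that of Xbp1 lay at 65 to 47 bases. Hyou1 had windows for 2 starts, and only the window shown held ERSE-II, at 188 to 178 and at 88 to 78 bases before its start. The first of these ERSE-II overlapped a core of the unfolded protein response element (TGACGTGG), found in 187 genes (0.681%). The short ends of the element were common: CCACG alone stood in 34.1% of all genes with a window and CCAAT in 39.6%, and each stood in all 8 of these genes, Sdf2l1, Pdia4 and Ddit3 included. The core TGATGNAA, of the composite site of C/EBP and ATF4, was found in 4.16% of all genes and in none of the 8. Such matches of letters describe the windows and were not measured as bound sites.

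Total counts per liver were 15262961 to 18343167. Levels are given as CPM, the reads of a gene per 1000000 reads of its library, scaled by the TMM method so that libraries can be compared, and a gene was called when the Benjamini-Hochberg adjusted p of the edgeR quasi-likelihood F test, over all 13687 genes, was under 0.05. HMP liver 1 stood apart with 18.7% of its counts from mitochondrial transcripts, against 4.79% to 10.2% in the other livers. The defining hepatocyte markers (Alb, Apoa1, Ttr and others, 8 of 8 present) summed to 124138 to 198517 CPM, so the label of liver holds in each library. In bulk tissue, fewer cells of a type and less RNA per cell cannot be told apart. No source used here says that the 3 livers of a group came from separate days or litters, so the p-values measure the spread between these livers.

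The most abundant of the 10 per length was Calr. On the authors' FPKM, which divide counts by gene length and library total, the mean over 12 livers was 344 for Calr, 273 for Hspa5, 203 for Xbp1 and 170 for Hsp90b1. Pdia6 (138 FPKM), Pdia4 (130 FPKM) and Manf (110 FPKM) followed, then Hyou1 (29.2 FPKM), Sdf2l1 (28.6 FPKM) and, last, Ddit3 (6.49 FPKM). Calr exceeded Hspa5 in 12 of 12 livers and Sdf2l1 exceeded Ddit3 in 12 of 12. The order of Pdia6 and Pdia4, and that of Hyou1 and Sdf2l1, held in only 6 of 12 livers, so neither pair was separated beyond its spread. The 10 genes together took 0.312% to 0.331% of the counts of the WI 30 min livers, 0.338% to 0.389% in SCS 4 h, 0.184% to 0.239% in HMP 1 h and 0.235% to 0.285% in HOPE 1 h. On this raw share the perfused and the unperfused livers did not overlap. On the TMM-scaled CPM used below the summed level met, at 2974 CPM in HOPE liver 2 and 2972 CPM in WI liver 2.

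**Figure D1:**
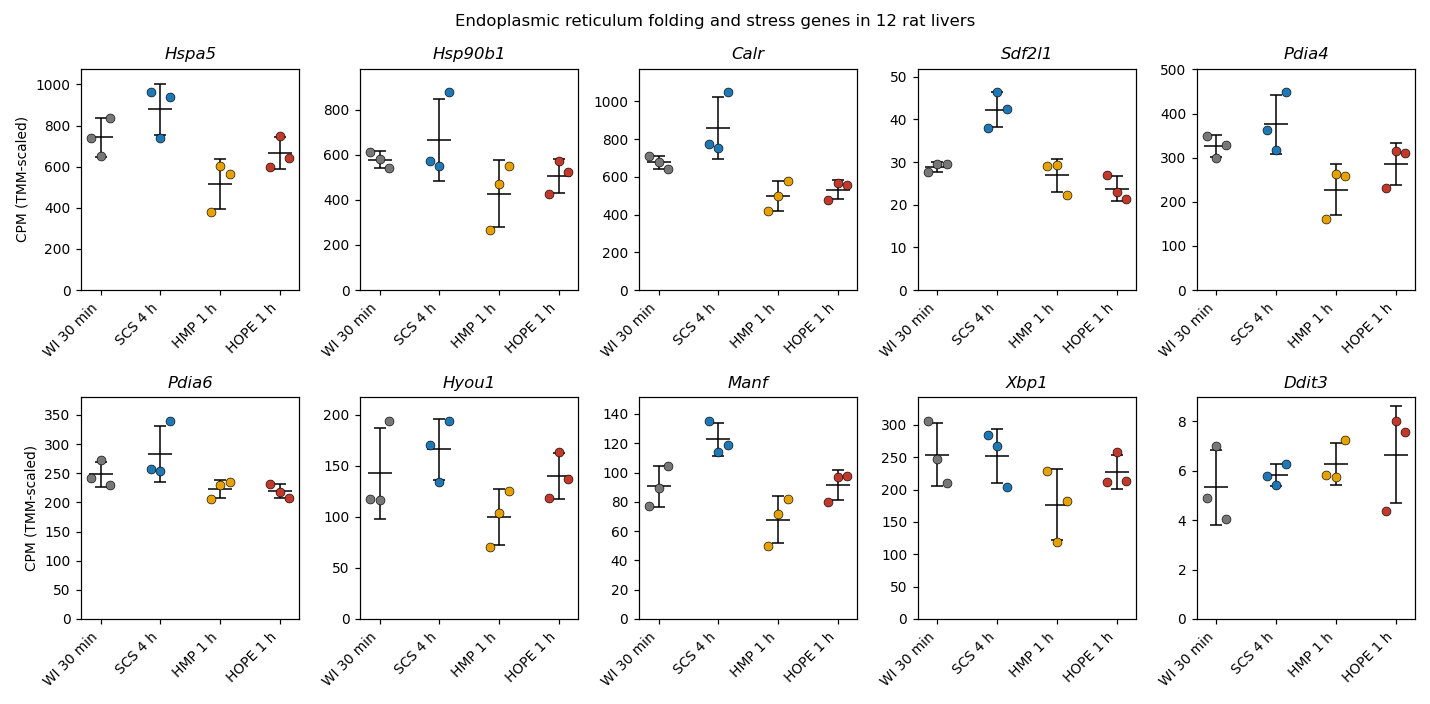
Level of each of the 10 genes (CPM, TMM-scaled, linear axis from 0) in the 3 livers of each group; points are livers, horizontal lines the group mean and bars the SD (n = 3). SCS 4 h had the highest mean in 8 of 10 genes and HMP 1 h the lowest in 7 of 10; Calr is the gene whose 6 perfused livers all lie under all 6 unperfused livers.

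SCS 4 h livers had the highest mean of the 4 groups for 8 of the 10 genes, all but Xbp1 and Ddit3, where 23.8% of all tested genes were highest in this group. HMP 1 h livers had the lowest mean for 7 of 10, against 26.5% of all tested genes. A single library weighed in this: HMP liver 1 was the lowest of the 12 livers for 7 of 10 genes, and for 16.3% of all tested genes. Among the 8 genes highest in SCS 4 h the rest of the order varied, with HOPE 1 h lowest for Sdf2l1 and Pdia6. Xbp1 had nearly the same mean in WI 30 min (253.9 CPM) and SCS 4 h (251.8 CPM), and its lowest mean in HMP 1 h. Ddit3 was highest on average in HOPE 1 h and lowest in WI 30 min.

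The folding genes had lower values in perfused than in unperfused livers, and for Calr and Sdf2l1 the difference passed the test. Of the 10 genes, 9 had a negative log2 fold change, with a median of -0.42 against 0.03 over all tested genes, of which 45.3% were negative. Across all tested genes 140 were called in this comparison (1.02%), and 103 of them were lower (0.753%), while 2 of the 10 were called, both lower. The count of 140 rested on single livers: it was 0 without HOPE liver 1 or HOPE liver 3. Calr was the 1 gene of the 10 whose perfused and unperfused livers did not overlap, in a comparison where 1.21% of all tested genes were lower without overlap.

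Calr encodes calreticulin, a calcium-binding lectin that holds newly made glycoproteins until they are folded. Its level was 711, 679 and 643 CPM in the WI 30 min livers, 777, 752 and 1048 CPM in SCS 4 h, 419, 497 and 580 CPM in HMP 1 h and 477, 566 and 555 CPM in HOPE 1 h. The highest perfused liver (580 CPM) was below the lowest unperfused liver (643 CPM), and SCS liver 3 was far above the rest. Calr fell to 0.676-fold in perfused livers (log2 fold change -0.57, SE 0.118, edgeR adjusted p = 0.0475), with a 95% interval of -0.82 to -0.31 on the log2 scale. The call was near its threshold. It remained in 1 of the 12 fits that each left out 1 liver, the one without HMP liver 3 (adjusted p = 0.0427), and without any other liver the adjusted p was 0.0558 to 0.137, while the log2 fold change stayed between -0.62 and -0.48 in all 12.

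Sdf2l1, the other gene called, encodes a small partner of the Hspa5 system that helps keep client proteins from aggregating. The 3 WI 30 min livers had 27.6, 29.6 and 29.6 CPM, and the SCS 4 h livers 38.1, 46.4 and 42.5 CPM. After perfusion the level was 29.0, 29.3 and 22.3 CPM in HMP 1 h and 27.0, 23.1 and 21.4 CPM in HOPE 1 h. The SCS 4 h livers lay above all other livers, whereas the HMP 1 h livers overlapped the WI 30 min livers. In perfused livers Sdf2l1 fell to 0.723-fold (log2 fold change -0.47, SE 0.0987, edgeR adjusted p = 0.0491). Without any 1 liver the call was lost (adjusted p = 0.0569 to 0.125), at log2 fold changes of -0.52 to -0.40.

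HMP liver 1 and HOPE liver 3 had the highest mitochondrial shares (18.7% and 10.2%). Leaving out both, a choice made after seeing the data, gave edgeR adjusted p = 0.0991 for Calr (log2 fold change -0.52) and 0.111 for Sdf2l1 (-0.46). With DESeq2 in place of edgeR, which called 757 genes in this comparison (5.53%) against 140, Hspa5, Pdia4 and Manf were called beside Calr and Sdf2l1. The sign of the 9 lower genes was the same in all the alternatives for this comparison.

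Hspa5 encodes BiP, the Hsp70 chaperone of the ER lumen, which also holds the sensors of the unfolded protein response inactive. WI 30 min livers had 739, 651 and 839 CPM, SCS 4 h livers 962, 738 and 938 CPM, HMP 1 h livers 379, 605 and 562 CPM and HOPE 1 h livers 600, 752 and 643 CPM. All HMP 1 h livers were below all WI 30 min and SCS 4 h livers, while HOPE 1 h overlapped both. The perfused livers averaged 590 ± 122 CPM (SD, n = 6) and the unperfused livers 811 ± 123 CPM (SD, n = 6). The log2 fold change was -0.47 (SE 0.137, edgeR adjusted p = 0.125, DESeq2 adjusted p = 0.0199).

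Hsp90b1 encodes GRP94, the Hsp90 of the ER, with integrins and Toll-like receptors among its clients. Its level was 613, 582 and 541 CPM in WI 30 min, 572, 548 and 877 CPM in SCS 4 h, 264, 469 and 551 CPM in HMP 1 h and 424, 572 and 525 CPM in HOPE 1 h. Apart from SCS liver 3, high, and HMP liver 1, low, the livers of the 4 groups overlapped. With a within-group SD of 0.356 on the log2 scale it was the most variable of the 10 (median of all tested genes 0.292), and its log2 fold change of -0.41 (SE 0.182) in perfused livers did not pass the test (edgeR adjusted p = 0.266).

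Hyou1 encodes GRP170, a large Hsp70-like protein that exchanges nucleotide on BiP. Livers of WI 30 min had 117, 117 and 194 CPM and those of SCS 4 h 171, 134 and 194 CPM. HMP 1 h livers had 70.4, 104 and 125 CPM and HOPE 1 h livers 119, 164 and 137 CPM. WI liver 3 was as high as the highest SCS 4 h liver, and the perfused and unperfused livers overlapped. The log2 fold change in perfused livers was -0.38 (SE 0.177, edgeR adjusted p = 0.291).

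Manf encodes a secreted ER protein, first known as a neurotrophic factor, that binds BiP. It was at 77.4, 89.3 and 105 CPM in WI 30 min, 135, 114 and 119 CPM in SCS 4 h, 49.99, 71.7 and 81.8 CPM in HMP 1 h and 79.8, 97.2 and 97.5 CPM in HOPE 1 h. The SCS 4 h livers stood above every other liver, and HOPE 1 h livers overlapped WI 30 min livers. Perfused livers averaged 79.7 ± 17.7 CPM (SD, n = 6) against 107 ± 20.8 CPM (SD, n = 6), with a log2 fold change of -0.42 (SE 0.127, edgeR adjusted p = 0.133, DESeq2 adjusted p = 0.0429).

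Pdia4 and Pdia6 encode protein disulfide isomerases, which form and rearrange the disulfide bonds of folding proteins. Pdia4 had 348, 299 and 330 CPM in WI 30 min, 363, 317 and 448 CPM in SCS 4 h, 161, 264 and 258 CPM in HMP 1 h and 231, 315 and 310 CPM in HOPE 1 h. Pdia6 had 241, 272 and 231 CPM in WI 30 min, 258, 254 and 339 CPM in SCS 4 h, 206, 230 and 234 CPM in HMP 1 h and 232, 218 and 208 CPM in HOPE 1 h. For both genes SCS liver 3 was the highest liver and HMP liver 1 the lowest. Pdia6 was the steadiest of the 10, with a within-group SD of 0.147 on the log2 scale. The log2 fold changes in perfused livers were -0.46 for Pdia4 (SE 0.145, edgeR adjusted p = 0.147) and -0.26 for Pdia6 (SE 0.0971, edgeR adjusted p = 0.2).

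Xbp1 encodes the transcription factor of the IRE1 branch, whose message IRE1 splices. WI 30 min livers had 306, 247 and 209 CPM, SCS 4 h livers 284, 267 and 204 CPM, HMP 1 h livers 229, 119 and 182 CPM and HOPE 1 h livers 212, 258 and 213 CPM. HMP liver 2 and HMP liver 3 were below every other liver, and HMP liver 1 lay among the livers of the other groups. Xbp1 did not pass the test in perfused livers (log2 fold change -0.34, SE 0.162, edgeR adjusted p = 0.308).

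Ddit3 was the 1 gene of the 10 with a positive log2 fold change in perfused livers, and it was not called (0.21, SE 0.185, edgeR adjusted p = 0.576). It rested on 67 to 144 counts per liver. The level was 4.91, 7.0 and 4.05 CPM in WI 30 min, 5.78, 5.42 and 6.28 CPM in SCS 4 h, 5.83, 5.75 and 7.24 CPM in HMP 1 h and 4.39, 8.0 and 7.55 CPM in HOPE 1 h. The groups overlapped throughout, and the 95% interval of the log2 difference, -0.19 to 0.62, includes 0.

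**Figure D2:**
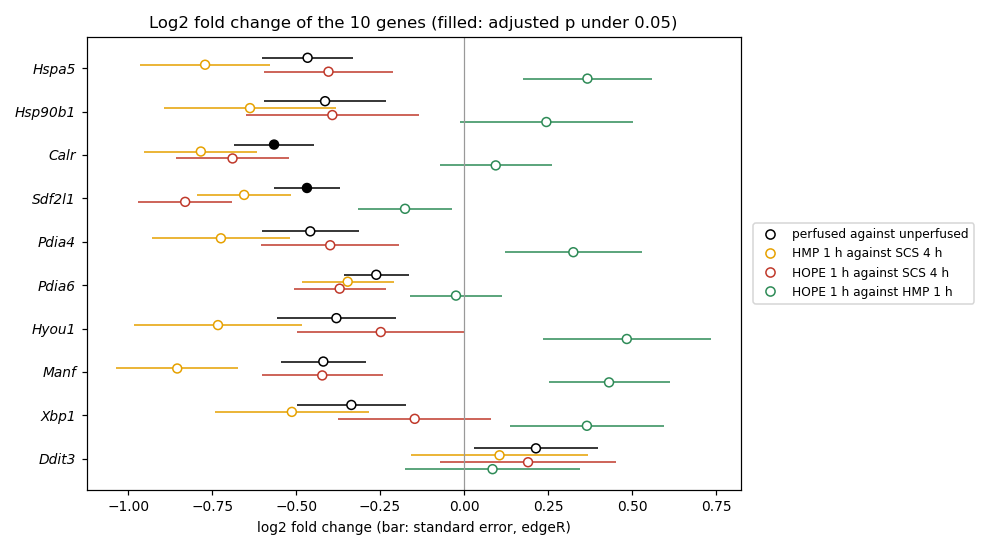
Log2 fold change of the 10 genes (x axis; bars are standard errors from edgeR) for perfused against unperfused livers and for 3 pairs of groups; filled points have an adjusted p under 0.05. The filled points are Calr and Sdf2l1 in perfused against unperfused livers, and Ddit3 is the gene with positive values in all 4 comparisons.

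Pairs of groups were then compared with 3 livers on each side. In edgeR, 0 of the 13687 genes were called in any of the 6 pairs (0% in each), nor in the F test among the 4 groups (0%), so none of the 10 was called either. At an unadjusted p under 0.05, 653 to 1983 genes passed per pair and 1690 in the F test, and DESeq2 called 15 to 433 genes per pair and 568 among the groups. The pairs share livers, so their values below are not independent of each other. Among the 10 the lowest adjusted p of the F test was that of Sdf2l1 (0.113), followed by Calr (0.178) and Manf (0.221).

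Against SCS 4 h, HMP 1 h livers had lower values in 9 of 10 genes, with a median log2 fold change of -0.69 against 0.04 over all tested genes. In 7 of 10 the 3 HMP 1 h livers were all below the 3 SCS 4 h livers, against 10.6% of all tested genes, and 9 of 10 had an unadjusted p under 0.05, against 14.5%. Manf had the largest difference (-0.85, SE 0.181), then Calr (-0.78, SE 0.168), Hspa5 (-0.77, SE 0.194) and Hyou1 (-0.73, SE 0.251). The edgeR adjusted p was 0.088 for Manf, Calr and Sdf2l1 and 0.113 for Hspa5. DESeq2 called 5 of the 10 here (Hspa5, Calr, Sdf2l1, Pdia4 and Manf), and 3.16% of all tested genes. Without HMP liver 1 the log2 fold change of Manf was -0.66, that of Hspa5 -0.57, that of Calr -0.65 and that of Hsp90b1 -0.36 in place of -0.64. Larger in size without this liver were the values of Xbp1 (-0.72 in place of -0.51) and Sdf2l1 (-0.70 in place of -0.65).

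HOPE 1 h livers were also below SCS 4 h livers in 9 of 10 genes (median -0.40 against 0.04), without overlap in 5 of 10 (Calr, Sdf2l1, Pdia4, Pdia6 and Manf), against 10.3% of all tested genes. The difference was largest for Sdf2l1 (-0.83, SE 0.14, edgeR adjusted p = 0.268, DESeq2 adjusted p = 0.00018) and Calr (-0.69, SE 0.168, edgeR adjusted p = 0.287, DESeq2 adjusted p = 0.00681). These were the 2 genes of the 10 that DESeq2 called, where it called 1.49% of all tested genes. For Hspa5 the log2 fold change was -0.40 (SE 0.193), with a 95% interval of -0.82 to 0.02.

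Oxygen in the perfusate separates HOPE 1 h from HMP 1 h. Of the 10 genes, 8 were higher on average in HOPE 1 h, with a median of 0.29 against -0.01, but the livers overlapped for all 10, where 6.22% of all tested genes were higher without overlap. Hyou1 (0.48, SE 0.251), Manf (0.43, SE 0.18) and Hspa5 (0.37, SE 0.193) had the largest values, with edgeR adjusted p of 0.707, 0.631 and 0.708. These values rested in part on HMP liver 1. Without it 6 of 10 genes were higher, Hsp90b1 (0.25 with it, -0.03 without) and Calr (0.09 and -0.04) turned their sign, and the values of Hyou1, Manf and Hspa5 were 0.26, 0.23 and 0.16. That of Xbp1 grew without HMP liver 1, from 0.37 to 0.57 (SE 0.225).

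Static cold storage separates SCS 4 h from WI 30 min. SCS 4 h livers had the higher mean log2 level in 9 of 10 genes, with a median of 0.21 against 0.01, and 3 of 10 did not overlap (Sdf2l1, Calr and Manf), against 7.13% of all tested genes. Sdf2l1 was 1.46-fold higher (0.55, SE 0.139), Manf 1.36-fold (0.44, SE 0.18) and Calr 1.27-fold (0.34, SE 0.167), each with an edgeR adjusted p of 0.962. Without SCS liver 3 the log2 fold change of Calr was 0.17 and that of Hsp90b1 was -0.05, against 0.20 with it. Xbp1 was at the same mean in both groups (-0.01, SE 0.228), with a 95% interval of -0.51 to 0.49.

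HMP 1 h livers were below WI 30 min livers in 9 of 10 genes (median -0.44 against 0.03), without overlap in 3 of 10 (Hspa5, Calr and Pdia4), against 8.45% of all tested genes. Hspa5 had a log2 fold change of -0.53 (SE 0.193, edgeR adjusted p = 0.279), and Sdf2l1 of -0.11 (SE 0.14, edgeR adjusted p = 0.771). Without HMP liver 1 the value of Hspa5 was -0.34, that of Manf -0.23 in place of -0.42 and that of Hsp90b1 -0.17 in place of -0.44, and without HMP liver 3 that of Sdf2l1 was 0.01. Xbp1 moved the other way without HMP liver 1, from -0.52 to -0.75. HOPE 1 h livers were below WI 30 min livers in 8 of 10 (median -0.17 against 0.02), without overlap in 2 of 10 (Calr and Sdf2l1), against 7.42% of all tested genes. Calr had a log2 fold change of -0.35 (SE 0.167, edgeR adjusted p = 0.592) and Sdf2l1 of -0.28 (SE 0.14, edgeR adjusted p = 0.597). Manf (0.02, SE 0.18) and Hyou1 (-0.03, SE 0.25) were near 0, and the value of Hyou1 was 0.26 without WI liver 3.

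**Figure D3:**
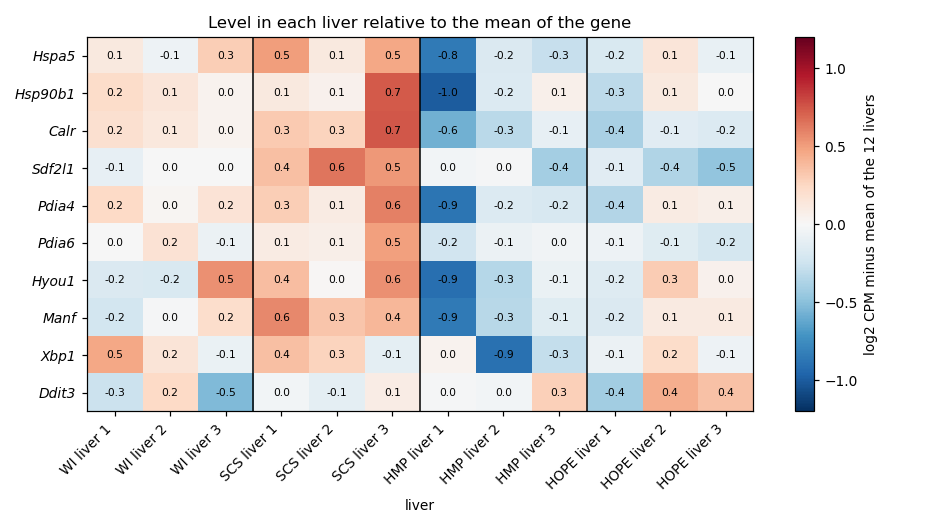
Level of each gene (rows) in each of the 12 livers (columns), as log2 CPM minus the mean of the gene over the 12 livers; red is above and blue below that mean, and black lines part the groups. The column of HMP liver 1 is the lowest for 7 of 10 genes, and Sdf2l1, Xbp1 and Ddit3 have rows unlike that of Hspa5.

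The levels of Pdia4, Manf, Hyou1, Hsp90b1 and Calr followed that of Hspa5 from liver to liver, while the relations of Pdia6, Sdf2l1, Xbp1 and Ddit3 with Hspa5 did not pass the test. Over the 12 livers, the log2 CPM of Pdia4 had Pearson r = 0.945 and Spearman rho = 0.944 with that of Hspa5. The permutation test (100000 resamples, two-sided) gave p = 1e-05 for r, the smallest it can give, and the p adjusted over the 9 genes compared with Hspa5 was 9e-05. The livers farthest from the median of Hspa5 were HMP liver 1 and SCS liver 1, and without these 2 r was 0.901. Of the other 13686 tested genes, 2 had an r with Hspa5 at least as high as that of Pdia4 (0.0146%), Pdia4 included.

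Manf (r = 0.914, rho = 0.783) and Hyou1 (r = 0.912, rho = 0.776) had an adjusted p of 0.00048 in the permutation test, and r was 0.749 and 0.823 without the 2 farthest livers. Hsp90b1 (r = 0.847, rho = 0.664) and Calr (r = 0.827, rho = 0.79) had an adjusted p of 0.0023, and r was 0.744 and 0.783 without them. An r at least as high as that of Calr was reached by 131 of the tested genes (0.957%). The relation of Hspa5 with Pdia6 (r = 0.611, rho = 0.517, permutation adjusted p = 0.0666), Sdf2l1 (r = 0.45, rho = 0.545, permutation adjusted p = 0.187), Xbp1 (r = 0.29, rho = 0.371, permutation adjusted p = 0.381) and Ddit3 (r = -0.12, rho = -0.10, permutation adjusted p = 0.72) did not pass, and without the 2 farthest livers their r was 0.556, 0.573, 0.37 and -0.21.

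Within groups, on deviations from the group means, r with Hspa5 was 0.86 for Pdia4, 0.869 for Hyou1, 0.793 for Manf and 0.727 for Hsp90b1. Their permutation adjusted p was 0.0024 to 0.0157. This permutation moved the deviations freely over the 12 livers and did not allow for the group means taken out. These p-values are therefore too small, and the one nearest the threshold, that of Hsp90b1 (0.0157), is not secure. Calr, at r = 0.573, no longer passed (permutation adjusted p = 0.0957). Sdf2l1 (r = -0.43) and Xbp1 (r = -0.51) had the opposite sign within groups and did not pass. All genes of a liver share its library and scaling factor.

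**Figure D4:**
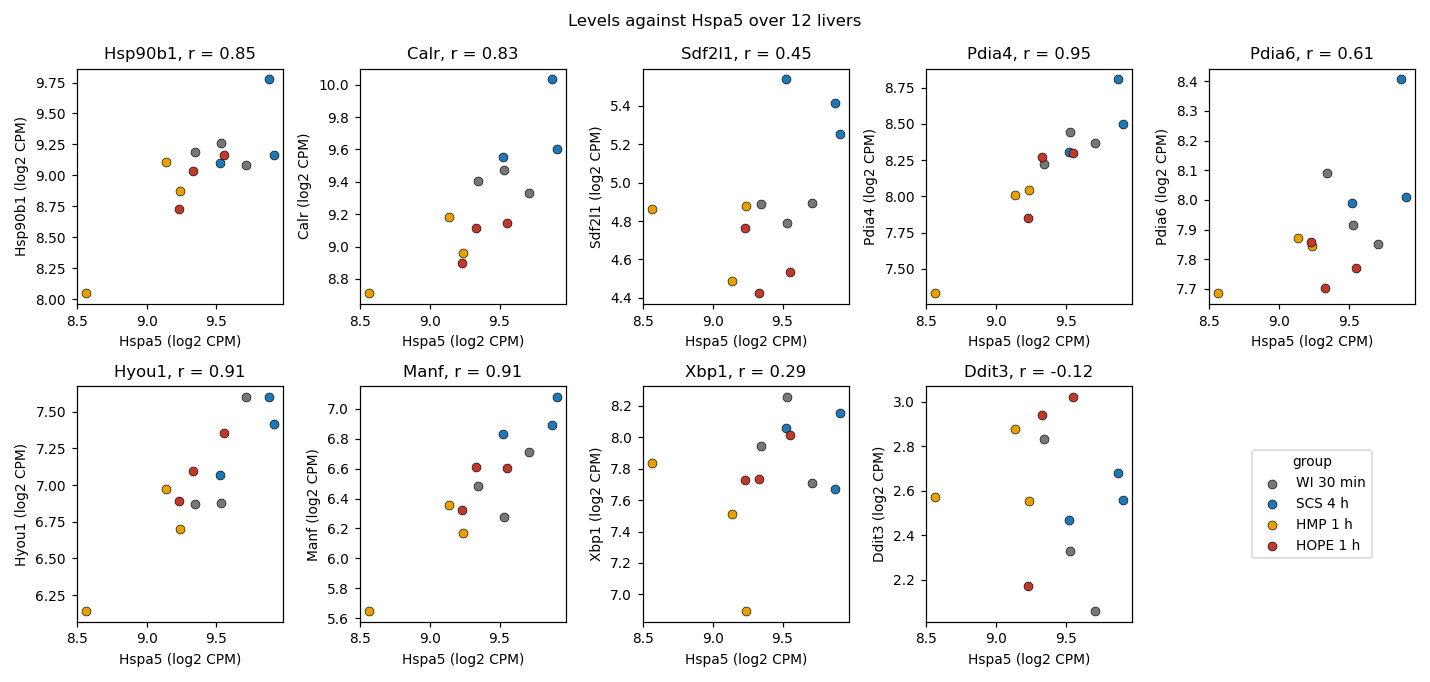
Level of 9 genes (y axis, log2 CPM) against that of Hspa5 (x axis, log2 CPM) over the 12 livers, coloured by group; axes do not start at 0. Pdia4, Manf and Hyou1 form a band from HMP liver 1 at the lower left to SCS 4 h livers at the upper right, while Xbp1 and Ddit3 do not.

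The genes whose pattern was most like that of the 8 folding genes (the 10 without Xbp1 and Ddit3), by the mean Pearson r over the 12 livers, were Canx (0.836), Pdia3 (0.812), Creld2 (0.808), Pigo (0.794) and Lcat (0.79). Canx encodes calnexin, the membrane-bound relative of calreticulin, and Pdia3 the disulfide isomerase that works with both. Creld2 encodes an ER protein that rises under ER stress, Pigo an enzyme of the synthesis of glycosylphosphatidylinositol anchors in the ER, and Lcat the plasma enzyme that esterifies cholesterol. On deviations from group means the mean r was 0.609, 0.656, 0.59, 0.572 and 0.534. Canx was at 563 to 592 CPM in WI 30 min, 612 to 716 CPM in SCS 4 h, 356 to 515 CPM in HMP 1 h and 514 to 537 CPM in HOPE 1 h. Its log2 fold change in perfused livers was -0.34 (SE 0.102, edgeR adjusted p = 0.127), and that of Creld2 was -0.60 (SE 0.174, edgeR adjusted p = 0.123).

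Other genes of the ER were read from 6 lists by function, and 0 of their genes were called in edgeR in any comparison. At an unadjusted p under 0.05 in perfused against unperfused livers, 6 of the 98 tested genes of these lists were higher and 10 lower, a share of 16.3% where 17.7% of all tested genes passed. Of the other ER chaperones and cochaperones, 12 of 16 were lower in perfused livers, with a median log2 fold change of -0.11. Of the genes of disulfide bond formation, 9 of 13 were lower (median -0.10), and of those of ER-associated degradation, which returns misfolded proteins to the cytosol, 12 of 17 (median -0.05). The sensors and transcription factors of the unfolded protein response were 4 higher and 6 lower (median -0.02). These medians lie between that of the 10 genes (-0.42) and that of all tested genes (0.03).

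Of the targets of ATF4 and CHOP, 13 of 20 had higher values in perfused livers, with a median of 0.17. Chac1, an enzyme that degrades glutathione, was at 8.23, 4.75 and 12.99 CPM in WI 30 min, 3.48, 4.94 and 8.90 CPM in SCS 4 h, 21.3, 31.7 and 16.6 CPM in HMP 1 h and 20.7, 9.90 and 5.40 CPM in HOPE 1 h. The 3 HMP 1 h livers exceeded all WI 30 min and SCS 4 h livers, and HOPE liver 1 was alone at that level in its group. Its log2 fold change was 1.24 in perfused livers (SE 0.358, edgeR adjusted p = 0.12) and 2.01 in HMP 1 h against SCS 4 h (SE 0.516, edgeR adjusted p = 0.12). The list as a whole did not share this in HMP 1 h against SCS 4 h, where 9 of the 20 targets were higher and 11 lower (median -0.05). Gdf15, a stress hormone, was at 4.54 to 14.4 CPM in HMP 1 h and at 2.20 to 5.36 CPM in the other livers, with a log2 fold change of 0.96 in perfused livers (SE 0.302, edgeR adjusted p = 0.143). Neither passed the test.

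Of the 22 genes of ER translocation and N-glycosylation, the machinery by which proteins enter the ER and receive sugars, 22 had a positive log2 fold change in SCS 4 h against WI 30 min, with a median of 0.25, and 8 of them were higher without overlap between the groups. Over all tested genes 47.7% were negative in this pair, and 7.13% were higher without overlap. Most of the other lists were also mainly higher in this pair. The other ER chaperones were 14 of 16 higher (median 0.18, 6 without overlap) and the genes of disulfide bond formation 10 of 13 (0.14). Those of ER-associated degradation were 12 of 17 higher (0.12) and the targets of ATF4 and CHOP 13 of 20 (0.15). Of the sensors and transcription factors 4 of 10 were higher (-0.04). Ssr2, a subunit of the complex beside the translocon, was at 53.1 to 64.4 CPM in SCS 4 h and 44.5 to 46.2 CPM in WI 30 min (0.34, SE 0.135, edgeR adjusted p = 0.962). Sec11c, a subunit of signal peptidase, was at 22.2 to 26.7 CPM and 19.8 to 21.1 CPM (0.29, SE 0.129, edgeR adjusted p = 0.962). In perfused against unperfused livers 16 of the 22 were lower, with a median of -0.07.

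From the lists, the genes with the lowest p among the 4 groups were also Dnajb11 (-0.39, SE 0.125), an Hsp40 partner of BiP, and Tmx1 (-0.29, SE 0.0931), a membrane-bound thioredoxin. Their edgeR adjusted p in perfused livers was 0.149 and 0.156. Creb3l3, a liver transcription factor released from the ER membrane, had 548 to 622 CPM in 5 of the 6 perfused livers and in WI liver 3, 518 CPM in HMP liver 3, and 705 to 821 CPM in the other unperfused livers (-0.37, SE 0.0967, edgeR adjusted p = 0.0926). The log2 fold changes of Atf6b (-0.11, SE 0.0828), a relative of the sensor ATF6, and of Faf2 (-0.18, SE 0.0764) and Selenos (-0.02, SE 0.0902), both of ER-associated degradation, were smaller.

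**Figure D5:**
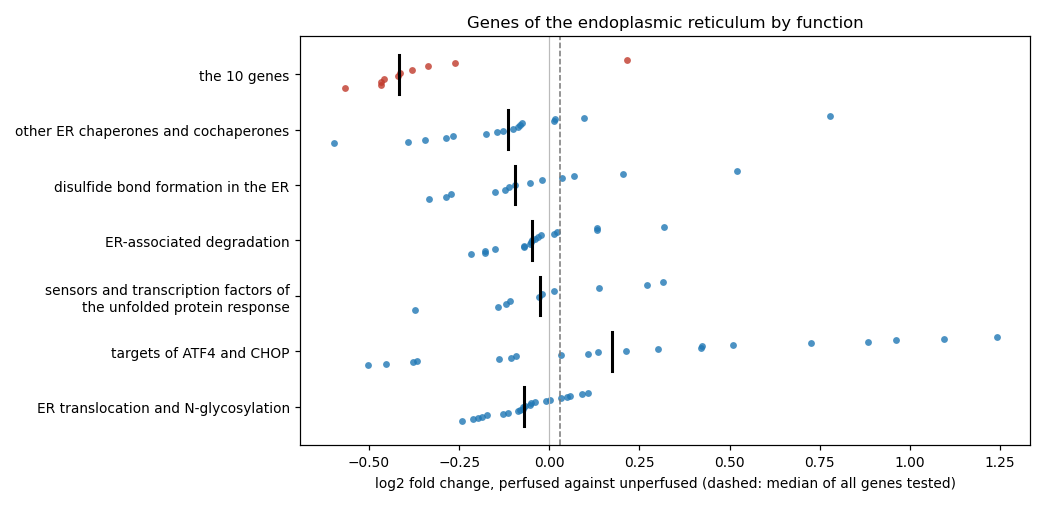
Log2 fold change in perfused against unperfused livers (x axis) of the 10 genes (red) and of the tested genes of 6 lists (blue), 1 point per gene; black bars are medians and the dashed line is the median of all tested genes (0.03). The median of the 10 genes is -0.42, and that of the targets of ATF4 and CHOP, at 0.17, is the one to the right of the dashed line.

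ERSE or ERSE-II stood in the windows of 26 tested genes, and 18 of them were lower in perfused livers, with a median log2 fold change of -0.27 and 1 called (Calr), where 45.3% of all tested genes were lower and 1.02% were called. Of the 26, 11 belonged to the 10 genes or to the lists, and 10 of the 11 were lower (median -0.38), the exception being Herpud1, of ER-associated degradation (0.13, SE 0.239). The 15 with no place in a list were 8 lower and 7 higher, with a median of -0.01. The median of all tested genes was 0.03.

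Markers of non-parenchymal cells had higher values in perfused livers. In perfused against unperfused livers 7 of 7 Kupffer cell markers were higher (median log2 fold change 0.60), 7 of 7 of sinusoidal endothelial cells (0.54), 6 of 6 of stellate cells (0.69) and 5 of 5 of bile duct cells (0.69), while hepatocyte markers were 4 higher and 4 lower (median near 0). No marker was called, in a comparison where 1.02% of all tested genes were. Hepatocyte markers nevertheless differed between single livers. Their sum was highest in SCS liver 3 (198517 CPM), the highest liver for Hsp90b1, Calr, Pdia4, Pdia6 and Hyou1. HMP liver 1, the lowest liver for 7 of the 10 folding and stress genes, had 128886 CPM. The lowest sum was that of SCS liver 2 (124138 CPM), which was not the lowest liver for any of these genes. A score per liver from the same markers gave another order at the low end. On this score HMP liver 1 was lowest (-0.51), and SCS liver 2 was at -0.06. SCS liver 3 was again highest (0.35), followed by HMP liver 3 (0.21). The other livers lay between -0.06 and 0.06. The summed Kupffer cell markers reached 456 to 1482 CPM in perfused and 402 to 640 CPM in unperfused livers, those of sinusoidal endothelial cells 416 to 1034 CPM and 388 to 590 CPM, and those of stellate cells 715 to 2010 CPM and 576 to 1026 CPM. The upper ends came from HMP liver 1 and HOPE liver 3, with 1482 and 898 CPM of Kupffer cell markers and 875 and 1034 CPM of sinusoidal endothelial markers, and in the other 4 perfused livers the Kupffer cell markers (456 to 583 CPM) lay within the range of the unperfused livers. HOPE liver 2 also lay above that range in sinusoidal endothelial markers (671 CPM), and HOPE liver 1 in stellate cell markers (1115 CPM). In HMP 1 h against SCS 4 h, 6 of 7 Kupffer cell markers were higher (median 0.555). So were 6 of 7 sinusoidal endothelial markers (0.352), 6 of 6 stellate cell markers (0.543) and 4 of 5 bile duct markers (0.654). In SCS 4 h against WI 30 min, 7 of 7 Kupffer cell markers (median 0.37) and 7 of 7 sinusoidal endothelial markers (0.29) were higher. Of stellate cell markers 4 of 6 (0.16) and of bile duct markers 3 of 5 (0.19) were higher there. In HOPE 1 h against HMP 1 h, 6 of 7 sinusoidal endothelial markers (0.24) and 4 of 6 stellate cell markers (0.07) were higher. Lower in that pair were 6 of 7 Kupffer cell markers (-0.26) and 3 of 5 bile duct markers (-0.01). Plasma cells, which use the same folding genes heavily, had summed markers of 7.04 to 17.9 CPM in HMP 1 h and 2.71 to 6.24 CPM in the other livers. Neutrophil markers summed to 0.617 to 2.86 CPM and were not tested, being under the filter. The part of cell composition, and of the mitochondrial share of HMP liver 1 and of the HOPE 1 h livers, in the levels of the folding genes was not tested.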

How the data were processed

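Liver RNA of 12 rats in 4 groups was sequenced. Paired-end reads were aligned by the authors with Hisat2, to Rnor_6.0 by the submitters' processing notes. The values tested are the raw counts that the authors deposited. The counting tool and its strand setting are not given in the sources used. The deposited FPKM, which divide counts by gene length and library total, were used only to compare levels between genes. The 30 columns of the authors' own comparisons (group means, fold changes and p-values) were not used. Each column was matched to its liver by the column name, and 861 genes have no symbol.

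Counts were filtered with filterByExpr (13687 of 33744 genes kept), scaled by TMM and tested in edgeR 4.0.16 (R 4.3.3) with its quasi-likelihood F test, in 1 model with a mean per group (8 residual and 3.86 prior degrees of freedom). Adjusted p-values are Benjamini-Hochberg over all tested genes of a comparison, with calls under 0.05. Log2 CPM used a prior count of 2. SE is the log2 fold change divided by the square root of F. Correlations were tested by permutation of the livers with 100000 resamples.

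The members and the lists were chosen with earlier results of these data known. Named genes are the 10 members, the 2 genes with the lowest p in the F test among the groups from each list without a call, and the 5 genes most like the folding members. Herpud1 was named after its value was seen, as the exception to a count. The lists were 6 of ER functions and 7 of cell types. Promoter sequences are those of RefSeq (GRCr8), and their coordinates were not joined with those of the counts. The genes lie, in Rnor_6.0, at chr3:13838304-13842762 (Hspa5), chr7:27226569-27240533 (Hsp90b1), chr19:25956771-25961666 (Calr), chr11:88122271-88124513 (Sdf2l1), chr4:77470636-77489535 (Pdia4), chr6:42568220-42585652 (Pdia6), chr8:48699769-48711910 (Hyou1), chr8:115623178-115626380 (Manf), chr14:85753760-85758145 (Xbp1) and chr7:70580198-70585084 (Ddit3), and all 10 are protein-coding.

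Results were recomputed with DESeq2 1.42.0, with RLE normalization, without the filter, with the groups of a comparison alone in the fit, with a replicate block and without each liver in turn. Chosen after seeing the data were the count at an unadjusted p under 0.05 and the fit without both HMP liver 1 and HOPE liver 3. The pipeline was tested on simulated data. For perfused against unperfused livers, edgeR called 34% of 100 genes changed 1.5-fold and 84% of 100 genes changed 2-fold, with 3 false calls. A gene that was not called can thus still differ by such amounts.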

Additional observations from a re-analysis of the deposited data

Results flagged for a closer look

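In a group of 6 livers, the highest or lowest liver was set against the others by its gap to the next liver, divided by the range of the group, and 2 of 20 groups (10 genes in the perfused and the unperfused livers) passed the 95% limit of Dixon's test. Chance gives about 1 in 20 groups. Both concern SCS liver 3 among the unperfused livers. Hsp90b1 was at 877 CPM there, with a gap of 0.786 of the range. Calr was at 1048 CPM there, with a gap of 0.671 of the range. Both genes share this liver, so these are not independent of each other. Without SCS liver 3 the log2 fold change of Calr in perfused livers was -0.48 (edgeR adjusted p = 0.0846), against -0.57 with it.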

How the results depend on the processing

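For single genes among the 10, 1218 of the 1260 log2 fold changes under the alternatives kept their sign and side of the threshold, 29 lost a call, 10 gained one (all with DESeq2) and 3 turned their sign, where a change of sign in an uncalled gene was counted only when its value moved by more than 1 SE. Those were Hyou1 in HOPE 1 h against WI 30 min (0.256 without WI liver 3, from a range of -0.159 to 0.256 over the fits without 1 liver), and Hsp90b1 in HOPE 1 h against HMP 1 h (-0.0328 without HMP liver 1, from a range of -0.0328 to 0.452, and -0.0559 without both HMP liver 1 and HOPE liver 3). The 29 lost calls are those of Calr and Sdf2l1 in perfused livers. With only the groups compared in the fit, the edgeR adjusted p was 0.0513 for Calr and 0.112 for Sdf2l1. RLE normalization kept both calls and changed no count of calls by over 1.5 times. The causes were not tested.

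Counts of called genes moved with the tool and the livers. DESeq2 called 97 genes in HOPE 1 h against WI 30 min, 204 in HOPE 1 h against SCS 4 h, 19 in HOPE 1 h against HMP 1 h, 390 in HMP 1 h against WI 30 min, 433 in HMP 1 h against SCS 4 h, 15 in SCS 4 h against WI 30 min, 757 in perfused livers and 568 among the 4 groups. In the same order, 1173, 1489, 1024, 1894, 1983, 653, 2418 and 1690 genes had an unadjusted p under 0.05. Without the filter on low counts, 8 genes were called in HOPE 1 h against WI 30 min, 19 in each comparison of HMP 1 h with an unperfused group, 1 in SCS 4 h against WI 30 min and 28 among the groups. With only the groups compared, 2 were called in HOPE 1 h against WI 30 min and 5 in HOPE 1 h against SCS 4 h. Without HMP liver 1 and HOPE liver 3 the counts were 1, 1, 46 and 22 in HOPE 1 h and HMP 1 h against WI 30 min and SCS 4 h (HOPE 1 h first), 61 in perfused livers and 11 among the groups.

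Leaving out 1 liver at a time gave 0 to 4 calls in HOPE 1 h against WI 30 min, 0 to 1 in HOPE 1 h against SCS 4 h, 0 to 2 in HOPE 1 h against HMP 1 h, 0 to 29 in HMP 1 h against WI 30 min, 0 to 36 in HMP 1 h against SCS 4 h, 0 to 1 in SCS 4 h against WI 30 min, 0 to 166 in perfused livers and 0 to 16 among the groups. The count of 140 in perfused livers was 0 without HOPE liver 1 or HOPE liver 3, 2 without SCS liver 2, 4 without SCS liver 1, 6 without WI liver 1, 23 without WI liver 2, 36 without SCS liver 3, 44 without HMP liver 2 and 64 without HOPE liver 2. The 5 correlations with Hspa5 that passed did so in each of these fits. Hsp90b1 did not pass without HMP liver 1 and HOPE liver 3 together (r = 0.641, permutation adjusted p = 0.0659).

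The replicate numbers were checked as a pairing. Livers with the same number had deviations correlated at -0.189 to 0.143 (median 0.0334, 18 pairs). Those with other numbers were at -0.225 to 0.329 (median -0.00752, 36 pairs), and 5 of 12 livers correlated best with their own number. This check cannot tell whether the numbers mark a pairing or are only names. With the replicate block, 66 genes were called in perfused livers, 1 in HOPE 1 h against WI 30 min and 1 in SCS 4 h against WI 30 min, and the adjusted p was 0.0687 for Calr and 0.0723 for Sdf2l1.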
